A study of Rattus norvegicus with 20 samples.

Results

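Retroperitoneal tissue of rats given resveratrol was compared with that of obese rats on 10 of the 20 arrays of the series, 5 from each group. All were male ZDF (Zucker diabetic fatty) rats, whose obese animals lack a working leptin receptor and become diabetic, with the strain labelled Zucker. The resveratrol group is known only by its name: the sources used here give no dose, duration, diet or age and do not say whether these rats were obese, and the comparison takes it that they were. The obese group received a stock diet for 6 weeks and no compound is named for it. The 5 arrays of each group are labelled as biological replicates, and the tissue is described only as retroperitoneal. The other 10 arrays, from rosiglitazone-treated and lean control rats, entered the fit as a source of the spread, and 100 ng of total RNA was used for each array. Of 36685 features on the array, 14824 carry exactly 1 gene symbol, and these stand for the 14557 genes compared here. Levels are log2 values after RMA, a method that corrects background, makes the distributions of arrays alike and summarises the probes of a feature. A difference is the mean of the resveratrol arrays minus the mean of the obese arrays on that scale, so that 1 stands for a 2-fold ratio.

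Retroperitoneal fat is a white adipose depot behind the abdominal cavity, made of adipocytes that store triglyceride and of fibroblasts, macrophages, mast cells, vessels and a mesothelial surface. Resveratrol is a plant polyphenol. Proteins proposed to mediate its effects include the NAD-dependent deacetylases called sirtuins, the energy sensor AMPK, cyclic AMP phosphodiesterases, cyclo-oxygenases, the aryl hydrocarbon receptor and the antioxidant regulator NRF2. Many of these act through enzyme activity, which a transcript level does not measure. In bulk tissue a lower level may come from fewer cells of a type or from less RNA per cell, and these cannot be told apart.

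Adipocyte genes had high levels in both groups. The mean level of 11 measured adipocyte markers lay between 8.08 and 9.90 on resveratrol arrays and between 9.02 and 9.92 on obese arrays. The lowest value in each group came from 1 array that stood apart in other respects too. Resveratrol array 1 had a mean correlation of 0.942 with the other arrays of its group, against 0.972 to 0.976 for the others. Obese array 2 had 0.949, against 0.970 to 0.973.

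Markers of other tissues were high on these 2 arrays. The 12 skeletal muscle markers averaged 7.15 on resveratrol array 1, against 2.20 to 2.46 on resveratrol arrays 2 to 5 and 2.29 to 3.14 on obese arrays. The fast muscle light chain gene Myl11 had a level of 8.89 on that array, and muscle creatine kinase, Ckm, had 8.16. The 13 mammary and milk protein genes averaged 6.85 there, against 1.58 to 2.01 on the other resveratrol arrays and 1.71 to 2.05 on obese arrays. Among them, the casein genes Csn1s1 and Csn3 reached 11.42 and 10.74. Csn1s1 was also at 5.34 on resveratrol array 2, while all other arrays of both groups lay at or under 1.77.

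Obese array 2 carried urothelial genes instead. The 6 urothelial markers averaged 7.31 on it, against 2.13 to 2.86 on resveratrol arrays and 2.38 to 2.61 on the other obese arrays. Uroplakin 2, Upk2, which is made in bladder and ureter lining, had a level of 8.59 on that array, and the epithelial factor Elf3 had 3.89. The 10 simple epithelium markers averaged 4.81 on obese array 2 and 3.52 on resveratrol array 1, and at most 2.08 on the remaining 8 arrays. Results that these arrays touch are also given with both of them left out, written as "without both arrays". The part of these markers in the results was not tested beyond that.

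**Figure D1:**
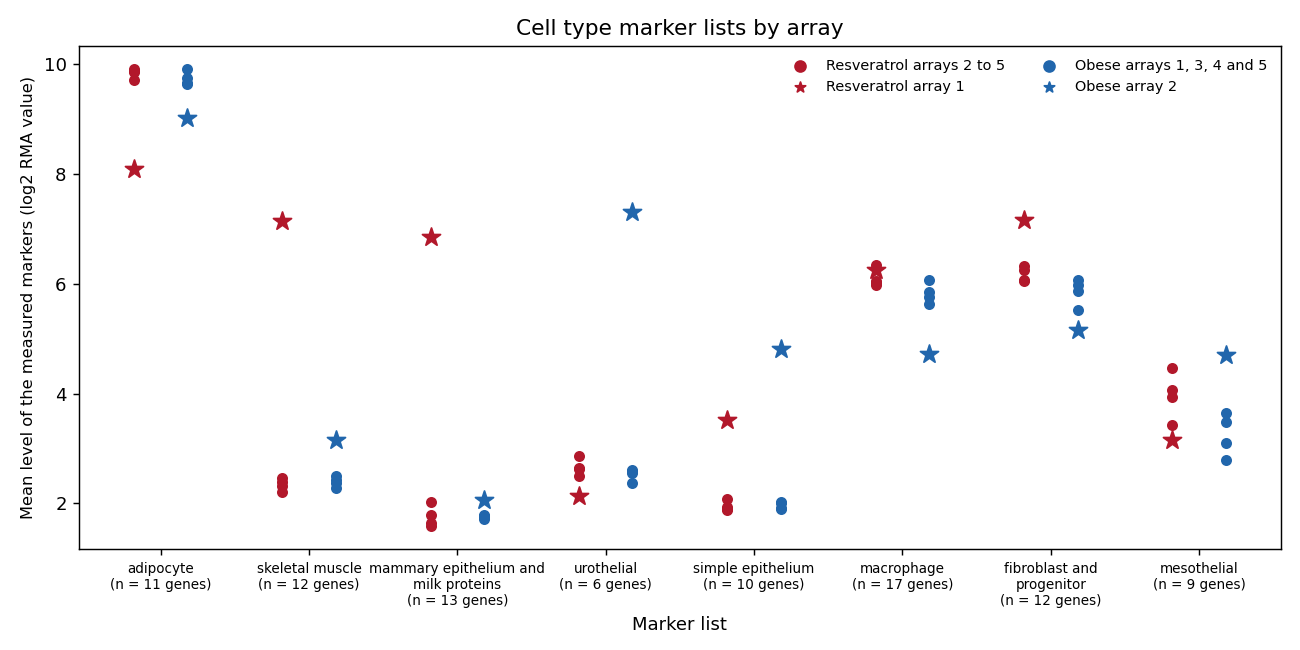
Mean level (log2 RMA value) of the measured genes of 8 marker lists on each array, resveratrol in red to the left of obese in blue; each symbol is 1 array, and stars mark resveratrol array 1 and obese array 2. Resveratrol array 1 lies far from the circles in the muscle and milk protein lists, at 7.15 and 6.85, and obese array 2 in the urothelial list, at 7.31.

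No gene differed between resveratrol and obese tissue by the test used. Limma, which borrows information on the spread across genes, left 0 of 14557 genes (0%) at an adjusted p under 0.05, and the smallest Benjamini-Hochberg adjusted p was 0.150. At an unadjusted p under 0.05 there were 1286 genes (8.83%), of which 667 were higher (4.58%) and 619 lower (4.25%). The 5 resveratrol arrays all lay above the 5 obese arrays for 143 genes (0.982%), and all lay below them for 144 (0.989%). The median difference was 0.02, and the median standard error of a difference was 0.17. Without both arrays 0 genes passed again, and 371 genes were higher (2.55%) and 447 lower (3.07%) at an unadjusted p under 0.05. The differences that follow are thus values with their errors, none of which passed the test.

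The direction of a difference went with the level of the gene. Of 7279 genes at or above the median level of 3.02, 5196 had a positive difference, and the median was 0.11. Of the 7278 genes under that level, 2497 had one, with a median of -0.08. Among the genes at or above the median level, 555 were higher at an unadjusted p under 0.05 (7.62%), and 120 had all 5 resveratrol arrays above all 5 obese arrays (1.65%), so these shares are the ones to read the lists of well expressed genes against. For the 3639 genes with the highest levels the median was 0.12. It became -0.02 when the arrays were quantile normalised again over the genes compared here. That step gives every array the same distribution over these genes, so by construction it largely removes a shift shared by well expressed genes. Medians under this setting, including those of the lists, are therefore no independent check. The 3639 genes with the highest levels had a median of 0.12 for rosiglitazone minus obese and -0.14 for obese minus lean. Both of these comparisons use the same obese arrays. A list median near 0.1 therefore stands at the level of all well expressed genes.

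**Figure D2:**
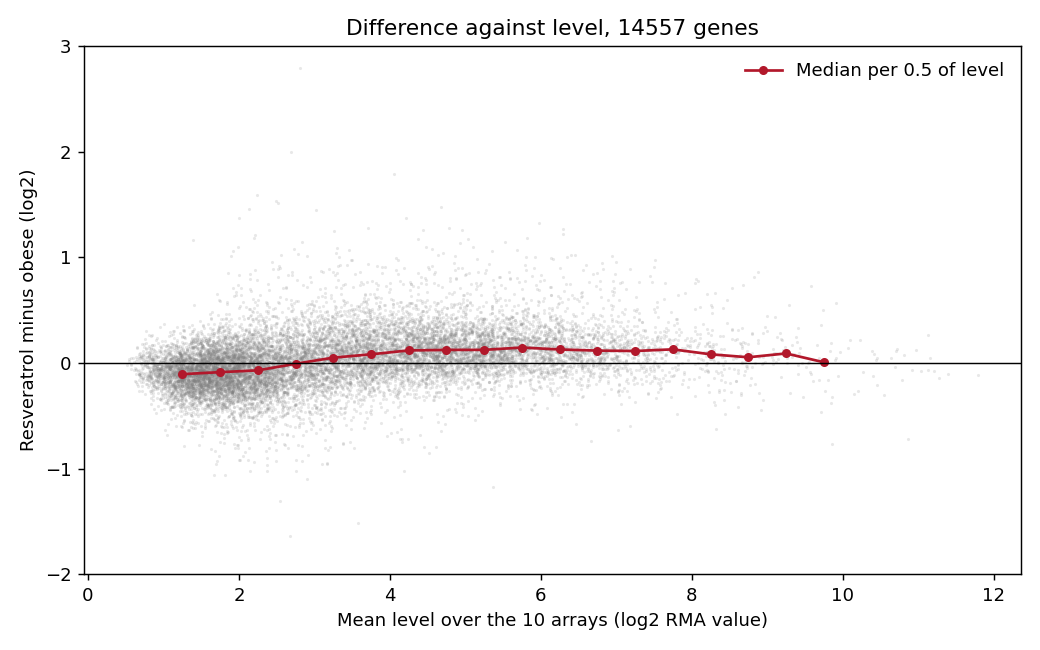
Difference of group means, resveratrol minus obese (log2), against the mean level over the 10 arrays (log2 RMA value), 1 grey point per gene, with the median per 0.5 of level in red. Medians lie under 0 at low levels and above 0 from a level of about 3.

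The genes with the smallest p among those whose groups did not overlap included the mast cell marker gene Cpa3 and the transcription factor gene Irf8 on the higher side. Cpa3, which encodes the mast cell protease carboxypeptidase A3, had 6.13, 4.45, 4.79, 4.88 and 4.52 on resveratrol arrays, against 3.54, 2.06, 4.12, 2.30 and 3.80 on obese arrays. Every resveratrol array lay above every obese array, and resveratrol array 1 was the highest of them. The difference was 1.79 (SE 0.37, limma adjusted p = 0.170), a ratio of 3.46-fold, and 1.22 without both arrays. Of the other mast cell markers, the stem cell factor receptor Kit had a difference of 0.45 and the transcription factor Gata2, which was highest on obese array 2 at 5.98, one of -0.65, or -0.16 without both arrays. Over the 9 measured mast cell markers 6 were positive and the median was 0.22, or 0.09 without both arrays. The share of 66.7% positive compares with 52.8% of all genes and 71.4% of those at or above the median level.

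Irf8, a transcription factor of macrophages, dendritic cells and B cells, had 5.46, 4.35, 4.16, 4.34 and 4.28 on resveratrol arrays, against 3.40, 3.01, 4.14, 4.0 and 3.66 on obese arrays. Resveratrol array 3 exceeded obese array 3 only narrowly, and the difference was 0.88 (SE 0.22, limma adjusted p = 0.295), or 0.48 without both arrays. Tyk2, a kinase of interferon and interleukin receptors, averaged 4.06 ± 0.26 on resveratrol arrays and 3.41 ± 0.29 on obese arrays (SD, n = 5 each), a difference of 0.66. Itm2a, an integral membrane protein gene, had 7.07, 6.87, 6.81, 6.69 and 6.84 on resveratrol arrays, against 6.44, 4.86, 6.13, 6.16 and 5.66 on obese arrays. Its resveratrol values were close together, with an SD of 0.14 against 0.62 in the obese group, and the difference of 1.0 was 0.70 without both arrays.

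Acy1, the enzyme that releases amino acids from their N-acetylated form, had 3.82, 3.07, 3.46, 3.19 and 3.24 on resveratrol arrays, against 2.88, 2.73, 2.58, 2.03 and 2.48 on obese arrays. The groups did not overlap, and its difference of 0.81 (SE 0.18, limma adjusted p = 0.189) was 0.75 without both arrays. For Acy1 the rosiglitazone arrays averaged 3.87 and the lean arrays 3.80, so that the obese group was the lowest of the 4. The remaining leading genes on the higher side were Tent5a, a poly(A) polymerase gene (0.93), the potassium channel gene Kcnk6 (0.75), the mitotic kinase gene Plk1 (0.62), the neurotrophic factor gene Cntf (0.62), the ribonuclease P subunit gene Rpp30 (0.54), the ubiquitin ligase gene Rnf166 (0.53) and Tmed4 (0.49), which serves transport between endoplasmic reticulum and Golgi. Their limma adjusted p-values lay between 0.189 and 0.321. Without both arrays the biliverdin reductase gene Blvrb (0.67) and Spopl (0.47), a ubiquitin ligase adaptor, also came among the genes with the smallest p.

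On the lower side the best expressed leading gene was Pla2g4c, which encodes a cytosolic phospholipase A2. It had 3.47, 3.69, 3.96, 3.83 and 3.45 on resveratrol arrays, against 4.01, 4.93, 4.61, 4.49 and 5.49 on obese arrays. The groups were separated by a small gap between resveratrol array 3 and obese array 1. The difference was -1.03 (SE 0.23, limma adjusted p = 0.205), and -0.92 without both arrays. Inka2, whose product inhibits the kinase PAK4, had 2.63, 3.10, 3.22, 2.86 and 2.70 on resveratrol arrays, against 3.28, 3.67, 3.43, 3.54 and 3.84 on obese arrays. Its difference was -0.65, and the same gene averaged 2.57 on rosiglitazone arrays and 3.47 on lean arrays.

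The smallest p of all genes belonged to Svs1, a seminal vesicle secretory protein gene. It had 2.08, 2.08, 1.91, 1.93 and 2.28 on resveratrol arrays, against 2.63, 2.56, 2.95, 2.76 and 2.97 on obese arrays. All of these values lie under the median gene level, where no detection call was available. The difference was -0.72 (SE 0.13, limma adjusted p = 0.150), and Svs1 passed, with an adjusted p of 0.0348, when arrays were weighted by their quality. Hey2, a transcriptional repressor downstream of Notch, averaged 2.16 ± 0.13 on resveratrol arrays and 2.76 ± 0.22 on obese arrays (SD, n = 5 each), a difference of -0.60.

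The other leading genes on the lower side, a choice that left out olfactory receptor genes, were also dim. They were Krtap10l1 (-0.81) and Krt25 (-0.57), both of hair, the germ cell gene Asz1 (-0.45), the colon epithelial gene Lypd8 (-0.54), the bitter taste receptor gene Tas2r139 (-0.52), the astrocyte membrane protein gene Mlc1 (-0.55), the organic anion transporter gene Slc22a24 (-0.42) and the glycolipid transfer domain gene Gltpd2 (-0.54). Their levels on resveratrol arrays ran between 0.72 and 2.22. Without both arrays Fpr2l1 (-1.20), named as a formyl peptide receptor, and the protocadherin gene Pcdhb12 (-0.91) stood beside them, with levels no higher than 2.86. Olfactory receptor genes, a family chosen after its values were seen, had a median of -0.16 over 1104 genes, with 7 higher and 159 lower at an unadjusted p under 0.05. Over all genes under the median level the median was -0.08, and 536 of 7278 were lower at that p (7.36%).

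**Figure D3:**
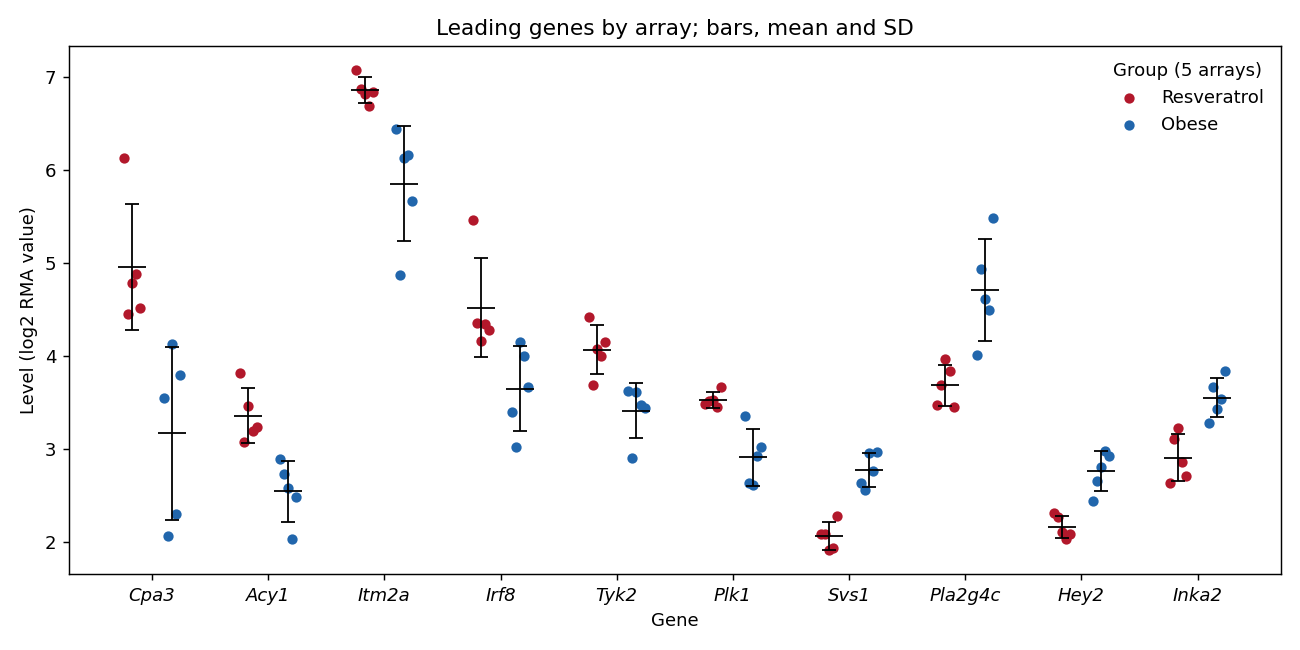
Level (log2 RMA value) of 10 leading genes on each array, 5 resveratrol arrays in red to the left of 5 obese arrays in blue, with the mean and SD as bars. The genes were chosen among those whose groups do not overlap, so the lack of overlap follows from the choice. Single arrays such as resveratrol array 1 for Cpa3 (6.13) and Irf8 (5.46) lie far from the rest of their group.

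The lists of pathways proposed for resveratrol had small median differences, and the intervals of most of the genes fixed by name spanned 0. Single genes had larger differences, such as 1.48 for Hmox1, or 0.35 without both arrays. Of 20 listed genes of sirtuins and NAD metabolism 14 were measured, 9 of them positive, and the median difference was 0.05. Sirt1 is not analysed here. Parp1, a DNA repair enzyme that consumes NAD, had 5.66, 5.40, 5.41, 5.42 and 5.42 on resveratrol arrays, against 5.11, 4.74, 4.95, 5.25 and 5.18 on obese arrays. The groups did not overlap, and the difference was 0.42 (SE 0.15, limma adjusted p = 0.427). Of the enzymes that complete NAD synthesis, Nmnat3, the mitochondrial form, had a difference of 0.35 and Nmnat2, the neuronal form, one of -0.45.

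AMPK is a complex of a catalytic alpha, a beta and a gamma subunit. Prkaa1, the alpha 1 subunit gene, had 5.43, 5.99, 5.97, 6.08 and 6.29 on resveratrol arrays, against 6.14, 5.39, 6.00, 6.19 and 5.91 on obese arrays. The groups overlapped fully, with a difference of 0.03 and a 95% interval of -0.33 to 0.39. Prkaa2, the alpha 2 subunit gene, had 5.75, 6.37, 6.01, 6.21 and 5.98 on resveratrol arrays, against 5.67, 5.43, 4.86, 5.41 and 5.90 on obese arrays. All 5 resveratrol arrays exceeded the obese mean, and the difference was 0.61 (SE 0.25, limma adjusted p = 0.50), or 0.68 without both arrays. Prkag1, the gamma 1 subunit gene, had a difference of 0.20. Over the 12 measured genes of AMPK and its kinases, 10 were positive with a median of 0.15, and 8 with a median of 0.05 after the arrays were quantile normalised again.

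Ppargc1a, the coactivator of mitochondrial biogenesis that sirtuins and AMPK modify, was dim, at 1.81 to 2.79 on resveratrol arrays and 1.98 to 2.72 on obese arrays. Its difference was -0.02 with a wide 95% interval of -1.18 to 1.15. The mitochondrial transcription gene Tfb1m had a difference of 0.42, and the 14 measured regulators of mitochondrial biogenesis a median of 0.12, which was 0.00 after quantile normalisation again. The median over all genes at or above the median level was 0.11.

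Cyclic AMP phosphodiesterases end the signal that drives lipolysis. Pde3b, the form through which insulin restrains lipolysis in adipocytes, had 6.03, 7.45, 7.18, 7.46 and 7.56 on resveratrol arrays, against 7.41, 6.92, 7.38, 7.54 and 7.22 on obese arrays. Resveratrol array 1 alone lay low, and the difference of -0.16 was 0.03 without both arrays. Pde7b had a difference of 0.59 and did not overlap between the groups, with 4.11 to 4.59 on resveratrol arrays and 3.22 to 4.06 on obese arrays. Prkar2a, a regulatory subunit gene of protein kinase A, also did not overlap and had a difference of 0.44. The 22 measured genes of cyclic AMP signalling had a median of -0.06, with 10 positive.

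Cyclo-oxygenases and lipoxygenases make prostaglandins and leukotrienes from arachidonic acid. Ptgs1, cyclo-oxygenase 1, had a difference of 0.11 with a 95% interval of -0.35 to 0.57. Ptgs2, cyclo-oxygenase 2, had 3.53, 3.73, 3.80, 3.23 and 3.20 on resveratrol arrays, against 2.74, 3.93, 2.77, 2.74 and 3.38 on obese arrays. The highest value of either group was that of obese array 2, and the difference was 0.39, or 0.58 without both arrays. Alox5, which starts leukotriene synthesis, had a difference of 0.84 and its activating protein gene Alox5ap one of 0.79, and these became 0.43 and 0.47 without both arrays. The 20 measured genes of eicosanoid synthesis and receptors had a median of 0.16, with 16 positive.

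The receptor and NRF2 target genes named here overlapped between the groups. Of 7 measured genes of the aryl hydrocarbon receptor list 1 did not, the receptor's partner gene Arnt, named after its values were seen, with a difference of 0.10. Cyp1a1, the classical receptor target, was dim on 9 arrays (1.36 to 1.93) and at 4.56 on obese array 2, which gave a difference of -0.52 that became 0.13 without both arrays. Cyp1b1 had a difference of 0.26 with a 95% interval of -0.32 to 0.84. Nqo1, a quinone reductase and NRF2 target, had 3.50, 4.65, 4.13, 4.46 and 4.46 on resveratrol arrays, against 4.40, 4.25, 3.75, 3.93 and 4.04 on obese arrays. Its difference was 0.16, or 0.39 without both arrays, and the ranges overlapped. Hmox1, haem oxygenase 1, had 8.87, 4.81, 4.57, 4.16 and 4.68 on resveratrol arrays, against 4.35, 2.88, 4.28, 4.45 and 3.76 on obese arrays. Resveratrol array 1 was the highest of its group and obese array 2 the lowest of its own. The difference was 1.48, or 0.61 without resveratrol array 1 and 0.35 without both arrays. The antioxidant enzyme genes Gpx7, a glutathione peroxidase of the endoplasmic reticulum, and Sod2, mitochondrial superoxide dismutase, had differences of 0.64 and 0.45. The 22 measured genes of NRF2 and antioxidant enzymes had a median of 0.15, with 17 positive, and 0.02 with 13 positive after quantile normalisation again.

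**Figure D4:**
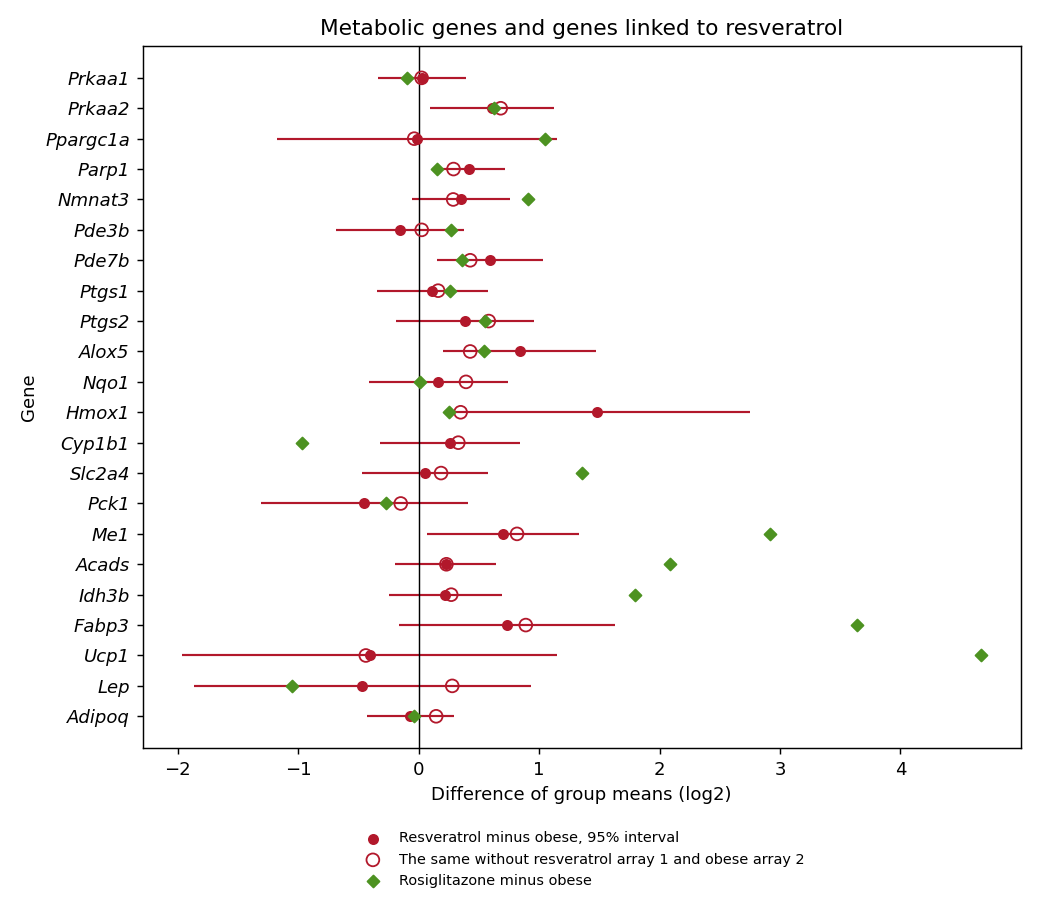
Difference of group means (log2) for 22 genes: resveratrol minus obese with its 95% interval (filled red), the same without resveratrol array 1 and obese array 2 (open red), and rosiglitazone minus obese (green). The red intervals of Prkaa1, Ppargc1a, Pde3b, Nqo1, Slc2a4, Lep and Adipoq span 0, and the green points of Me1, Fabp3 and Ucp1 lie at 2.91, 3.64 and 4.67.

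The mitochondrial lists had medians near those of all well expressed genes in resveratrol-treated tissue, and larger ones in rosiglitazone-treated tissue. Rosiglitazone is an agonist of PPARG, the master regulator of fat cells. The 56 measured genes of oxidative phosphorylation had a median of 0.12 for resveratrol minus obese, and 1.08 for rosiglitazone minus obese. The 18 genes of the tricarboxylic acid cycle had 0.05 for resveratrol and 1.45 for rosiglitazone. The 20 genes of mitochondrial fatty acid oxidation had 0.06 for resveratrol and 1.56 for rosiglitazone. Both comparisons use the same obese arrays, and the gap between them was not tested. Without both arrays the 3 resveratrol medians were 0.15, 0.20 and 0.12, where genes at or above the median level had 0.09. Then 44 of 56, 14 of 18 and 17 of 20 genes were positive, against 69.4% of genes at or above the median level. Under quantile normalisation again the 3 medians became -0.02, -0.08 and -0.10. The sign thus depended on the setting, and no direction is given for these lists.

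Single genes of these lists varied. Acads, the short-chain acyl-CoA dehydrogenase of fatty acid oxidation, had 2.94, 3.18, 3.17, 3.41 and 3.54 on resveratrol arrays, against 3.30, 2.74, 3.11, 3.15 and 2.82 on obese arrays. The groups overlapped and the difference was 0.23 (SE 0.20, limma adjusted p = 0.737), while rosiglitazone arrays averaged 5.11. Idh3b, an isocitrate dehydrogenase subunit gene, had a difference of 0.22 for resveratrol and 1.79 for rosiglitazone. Dlat, of the pyruvate dehydrogenase complex, was at 4.68 on resveratrol array 1 and between 6.17 and 6.32 on the other 4, and had a difference of 0.38. Of the respiratory chain genes, the complex I gene Ndufa11 had a difference of 0.34 and the ATP synthase subunit gene Atp5f1c one of -0.72. For rosiglitazone minus obese, Ndufa11 had 1.43, while Atp5f1c was negative there too, at -0.98.

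Of 12 measured genes of de novo lipogenesis 9 were positive, which is 75% against 71.4% among all genes at or above the median level. At an unadjusted p under 0.05, 3 of the 12 were higher, against 7.62% of those genes. Without both arrays 4 were, against 280 of 7279, and under quantile normalisation again 1 of the 12 had such a p. Me1, malic enzyme, which supplies reducing power for fatty acid synthesis, had 6.92, 7.48, 7.56, 7.64 and 7.81 on resveratrol arrays, against 7.11, 6.69, 6.72, 6.58 and 6.81 on obese arrays. Resveratrol array 1 lay within the obese range and the other 4 above it. The difference was 0.70 (SE 0.31, limma adjusted p = 0.534), or 0.82 without both arrays. Acss2, which makes acetyl-CoA from acetate, had a difference of 0.58, or 0.30 without both arrays. The desaturase gene Fads1 had 9.19 on resveratrol array 1 and at most 6.87 elsewhere, and its difference of 1.03 was 0.51 without both arrays. The list had a median of 0.18, or 0.28 without both arrays and 0.05 under quantile normalisation again. Of 15 cholesterol genes 11 were positive, and all 15 were without both arrays, with medians of 0.11 and 0.23. Within this list Nsdhl and Fdps, both of the synthetic pathway, had differences of 0.57 and 0.60. Under quantile normalisation again the cholesterol median was -0.02.

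Genes of glucose handling, fatty acid uptake and heat production overlapped between the groups. Slc2a4, the insulin-regulated glucose transporter GLUT4, had 3.11, 3.27, 4.0, 3.96 and 3.77 on resveratrol arrays, against 3.68, 3.59, 3.43, 3.58 and 3.56 on obese arrays. Resveratrol arrays lay on both sides of the obese range, and the difference was 0.05 with a 95% interval of -0.47 to 0.58. Pck1, the key enzyme of glyceroneogenesis, had a difference of -0.45, with 7.43 on resveratrol array 1 and 8.92 to 9.18 on the other 4, and -0.15 without both arrays. The glycolytic gene Pgk1 had a difference of 0.68 and the fatty acid transporter gene Slc27a1 one of 0.55. Fabp3, a fatty acid binding protein of oxidative tissue, had a difference of 0.73, against 3.64 for rosiglitazone. Ucp1, the uncoupling protein of brown fat, was at 0.95 to 1.31 on resveratrol arrays and 1.22 to 2.25 on obese arrays, while the rosiglitazone arrays averaged 6.22.

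Adipocyte genes were lowest on resveratrol array 1, and within the obese group lowest on obese array 2. Lep, the gene of the satiety hormone leptin, had 5.89, 10.28, 10.43, 10.50 and 10.31 on resveratrol arrays, against 10.20, 9.34, 9.93, 10.08 and 10.20 on obese arrays. The other 4 resveratrol arrays lay above all 5 obese arrays. The difference was -0.47 with a 95% interval of -1.87 to 0.93, and 0.28 without both arrays. Adipoq, adiponectin, had 9.92 on resveratrol array 1 and 11.03 to 11.18 on the other 4, against 10.84 to 11.01 on obese arrays. Here too 4 of 5 resveratrol arrays lay above the obese range, and the difference of -0.07 became 0.15 without both arrays (limma adjusted p = 0.89).

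The lipid droplet protein genes Cidec and Plin1 were likewise lowest on resveratrol array 1, at 7.82 and 8.39, and had differences of -0.38 and -0.27. Without both arrays these were -0.01 and -0.07. The chemokine-like adipokine gene Rarres2, chemerin, had a difference of 0.62, with obese array 2 lowest at 5.42, and 0.31 without both arrays. Over the 11 adipocyte markers the median was -0.14 with 3 positive, and 0.04 with 6 positive without both arrays.

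Matrix and fibroblast genes had positive differences throughout their lists. All 25 measured extracellular matrix genes were positive with a median of 0.44, and 24 were without both arrays with a median of 0.24. At an unadjusted p under 0.05, 3 of the 25 were higher, where the share was 7.62% among all genes at or above the median level. Without both arrays none were, against 280 of those 7279 genes. Under quantile normalisation again 22 were positive with a median of 0.31. All 12 fibroblast and progenitor markers were positive with a median of 0.69, and with 0.26 without both arrays. Their mean level was 7.16 on resveratrol array 1, the array with the muscle and milk protein genes, and 6.06 to 6.32 on the other resveratrol arrays, while obese array 2 had 5.15 and the 4 other obese arrays 5.52 to 6.07.

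Dcn, the collagen-binding proteoglycan decorin, had 10.51, 9.59, 9.94, 9.81 and 9.85 on resveratrol arrays, against 9.51, 8.70, 9.54, 8.75 and 9.56 on obese arrays. The groups did not overlap, and the difference was 0.73 (SE 0.27, limma adjusted p = 0.448), or 0.46 without both arrays. Col1a1, the alpha 1 chain of type I collagen, was at 11.07 on resveratrol array 1 and 8.32 to 9.06 on the other 4, against 8.05 to 8.69 on obese arrays. Its difference was 0.82, and 0.26 without both arrays. The proteoglycan gene Lum had a difference of 0.88, the fibril-associated collagen gene Col14a1 one of 0.78 and the fibroblast surface antigen gene Thy1 one of 0.73. Without both arrays these were 0.48, 0.45 and 0.57.

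Of 17 measured matrix remodelling genes 15 were positive, with a median of 0.29, or 0.23 without both arrays and 0.17 under quantile normalisation again. Loxl2, a collagen cross-linking enzyme, had 6.25, 6.13, 6.14, 6.40 and 6.31 on resveratrol arrays, against 5.91, 4.33, 5.50, 5.49 and 5.60 on obese arrays. Every resveratrol array exceeded every obese array and obese array 2 was the lowest, and the difference was 0.88 (SE 0.28, limma adjusted p = 0.389), or 0.62 without both arrays. The related gene Loxl1 had a difference of 1.15, and 0.57 without both arrays. The gelatinase gene Mmp2 did not overlap between the groups and had a difference of 0.76, and 0.40 without both arrays. The 15 measured genes of TGF-beta signalling, the main profibrotic pathway, had a median of 0.06.

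**Figure D5:**
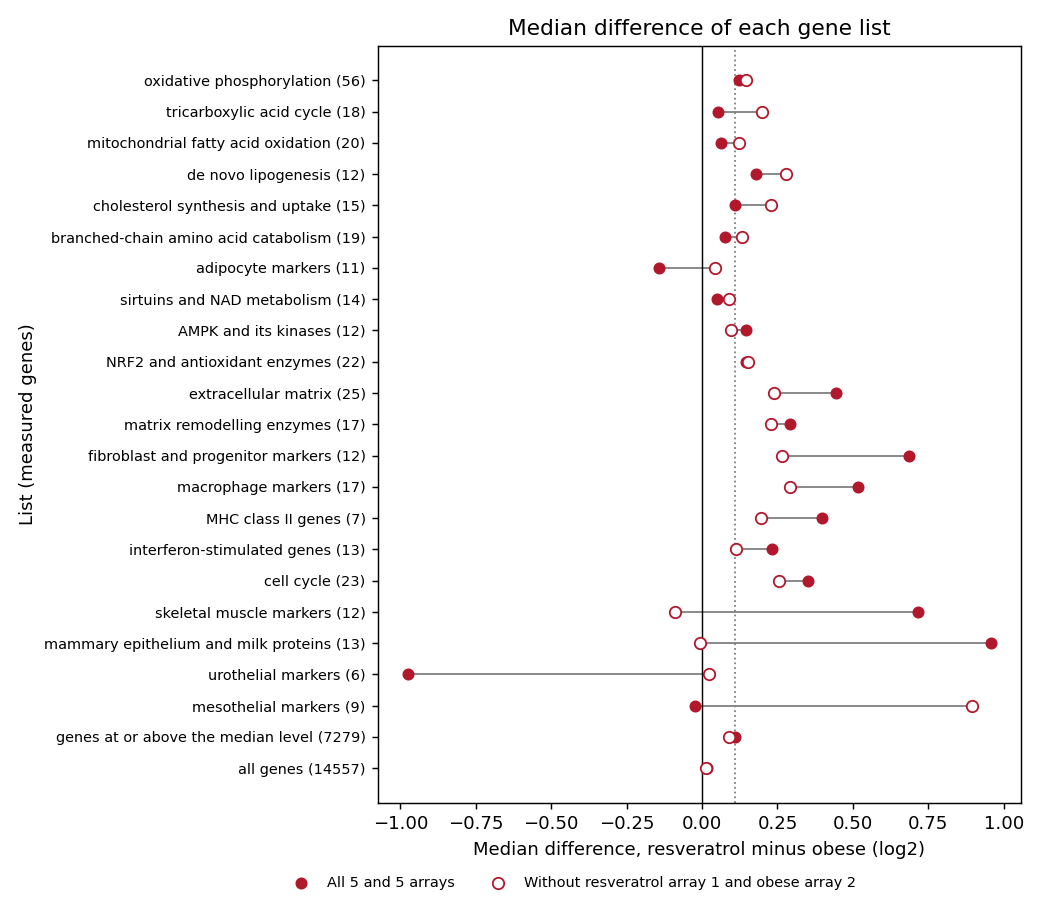
Median difference, resveratrol minus obese (log2), of 21 gene lists and of all genes, with the number of measured genes in brackets; filled points use all arrays and open points leave out resveratrol array 1 and obese array 2, and the dotted line marks the median of genes at or above the median level (0.11). Muscle, milk protein and urothelial medians of 0.72, 0.96 and -0.98 move to -0.09, -0.01 and 0.02 without both arrays, and the mesothelial median moves to 0.90.

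Macrophage and antigen presentation genes were among the lists with the highest medians. Of 17 measured macrophage markers 15 were positive with a median of 0.52, and 7 were higher at an unadjusted p under 0.05, where the share was 7.62% among all genes at or above the median level. Without both arrays 13 were positive with a median of 0.29, and 1 was higher at that p, against 280 of the 7279 genes at or above the median level. The mean level of the list was 5.97 to 6.35 on resveratrol arrays, while obese array 2 had 4.72 and the 4 other obese arrays 5.63 to 6.07. C1qb, a chain of complement C1q made by tissue macrophages, had 7.0, 7.07, 6.74, 6.72 and 7.13 on resveratrol arrays, against 6.35, 4.57, 5.72, 5.15 and 6.54 on obese arrays. The resveratrol arrays all lay above the obese arrays and varied less, with an SD of 0.19 against 0.82. The difference was 1.27 (SE 0.44, limma adjusted p = 0.427), or 0.98 without both arrays.

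Adgre1, which encodes the macrophage antigen F4/80, had 5.95, 4.66, 4.79, 4.79 and 4.96 on resveratrol arrays, against 4.25, 3.39, 4.36, 4.48 and 4.36 on obese arrays. The groups did not overlap, and both ends of the range came from resveratrol array 1 and obese array 2. The difference was 0.86 (SE 0.24, limma adjusted p = 0.325), or 0.44 without both arrays. C1qa had a difference of 0.77, or 0.40 without both arrays. All 7 measured MHC class II genes were positive, with a median of 0.40, or 0.19 without both arrays, and RT1-Ba and RT1-Da, which encode alpha chains, had differences of 0.64 and 0.52, or 0.46 and 0.24 without both arrays. For rosiglitazone minus obese, which shares the obese arrays, the medians were -0.33 for macrophage markers and -0.74 for MHC class II genes.

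Inflammatory cytokine genes included dim members, such as Tnf and Il6, and better expressed ones, such as Ccl2. Tnf, tumour necrosis factor, was at 2.04 to 2.40 on resveratrol arrays and 2.30 to 2.66 on obese arrays, a difference of -0.21 with a 95% interval of -0.53 to 0.11. Il6 had a difference of 0.21 with an interval of -0.44 to 0.86. Ccl2, the monocyte chemoattractant, had 6.69, 4.80, 4.87, 4.91 and 5.09 on resveratrol arrays, against 4.60, 4.13, 4.57, 4.65 and 4.44 on obese arrays. The groups did not overlap, and the difference was 0.80 (SE 0.53, limma adjusted p = 0.653), or 0.35 without both arrays. Il18 had a difference of 1.06, which was 0.52 without both arrays, and Relb, an NF-kappaB subunit gene, one of 0.37 with and without both arrays. Of the 25 measured genes of this list 17 were positive, with a median of 0.18, or 0.04 without both arrays.

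Interferon-stimulated genes varied between resveratrol arrays. Mx1, an antiviral GTPase, had 4.83, 2.95, 4.87, 1.83 and 2.55 on resveratrol arrays, against 2.08, 1.91, 2.80, 2.5 and 2.67 on obese arrays. Usp18, which removes the ubiquitin-like protein ISG15, had 4.57, 3.02, 4.44, 2.85 and 3.52 on resveratrol arrays, against 2.81, 2.74, 2.95, 2.58 and 3.02 on obese arrays. Both genes were highest on resveratrol arrays 1 and 3, and their differences were 1.01 and 0.86, or 0.53 and 0.61 without both arrays. Irf7, the regulator of interferon genes, was at 7.28 on resveratrol array 1 and 3.44 to 4.61 on the other 4, with a difference of 1.0 that was 0.21 without both arrays. All 13 measured genes of the list were positive with a median of 0.23, and 11 were without both arrays with a median of 0.11.

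The cell cycle list had a median that kept its size when the arrays were quantile normalised again. Of 23 measured genes 21 were positive with a median of 0.35, and 7 were higher at an unadjusted p under 0.05, where the share was 4.58% over all genes and 7.62% among those at or above the median level. Without both arrays 17 were positive with a median of 0.26, and 3 were higher at that p, against 280 of the 7279 genes at or above the median level. Plk1, the mitotic kinase, had 3.48, 3.51, 3.52, 3.45 and 3.67 on resveratrol arrays, against 3.35, 2.63, 2.61, 2.92 and 3.02 on obese arrays. The groups did not overlap, and the difference was 0.62 (SE 0.17, limma adjusted p = 0.321), or 0.56 without both arrays. Bub1, of the spindle checkpoint, had a difference of 0.59 and Cdc20, which activates the anaphase-promoting complex, one of 0.37. Levels of these genes lay near the median gene level, at 2.77 to 3.67 on resveratrol arrays and 2.19 to 3.35 on obese arrays.

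Genes of cell stress and turnover had smaller medians. The p53 target gene Zmat3 had a difference of 0.62 within a list of 13 whose median was 0.07. Of 18 lysosome and autophagy genes 17 were positive with a median of 0.17, or 0.05 after quantile normalisation again. Within it the lysosomal hexosaminidase gene Hexa had 5.91 to 6.41 on resveratrol arrays and 5.07 to 5.90 on obese arrays, a difference of 0.45, and the protease gene Ctsl had one of 0.64. Without both arrays these were 0.23 and 0.30. Of the genes of endoplasmic reticulum stress, the chaperone gene Dnajc3 had a difference of 0.39 and the transcription factor gene Ddit3, also known as CHOP, one of 0.34. For Ddit3 the 5 resveratrol arrays lay at 4.21 to 4.55, all above the obese arrays at 3.80 to 4.14. The clock repressor gene Bhlhe40 had a difference of 0.75, or 0.36 without both arrays.

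Of the vessel and surface lists, the endothelial markers had a median of 0.02 over 14 genes. Lyve1, of lymphatic endothelium and some macrophages, had a difference of 0.84, and 0.66 without both arrays. Smooth muscle and pericyte markers had a median of -0.07 over 8 genes with 3 positive, or -0.14 with 1 positive without both arrays. Tagln, transgelin, was at 5.76 to 6.93 on resveratrol arrays and 5.88 to 8.14 on obese arrays, with a difference of -0.74. Under the alternatives the Tagln difference ran between -1.03 and -0.47. The 9 mesothelial markers had a median of -0.02, which became 0.90 without both arrays with 7 of 9 positive. The list holds keratin and uroplakin genes that are also epithelial. It averaged 3.15 on resveratrol array 1 and 3.42 to 4.46 on the 4 others, while obese array 2 had 4.70 and the 4 other obese arrays 2.80 to 3.64. Gpm6a, a mesothelial membrane glycoprotein gene, had 2.89, 4.26, 6.19, 5.38 and 5.77 on resveratrol arrays, against 4.83, 3.39, 3.15, 2.45 and 3.80 on obese arrays. Its difference was 1.38 (SE 0.67, limma adjusted p = 0.572), or 1.84 without both arrays. Lrrn4, also of mesothelium, had 1.82, 3.68, 4.97, 3.88 and 4.28 on resveratrol arrays, against 4.04, 2.44, 2.52, 2.0 and 3.38 on obese arrays. For both genes resveratrol arrays 2 to 5 lay above obese arrays 2 to 5, and resveratrol array 1 and obese array 1 stood against the rest of their groups.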

How the data were processed

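The deposited table holds log2 values, 1 column per array for all 20 arrays, which the authors made with RMA per the submitters' processing notes, version and settings not stated in these sources. That the scale is log2 was taken from the values' range and from the method, and 0 columns went unused. The platform's gene table named 15653 of 36685 features, 829 of them with several symbols, and 21032 are unnamed here. Features with exactly 1 symbol were kept. Where a gene had several (234 genes), its feature of highest mean level stood for it, which gave 14557 genes. Coordinates and sequences are not given, since no genome was at hand for the array's build and no result turns on a sequence.

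Group means of all 20 arrays were fitted with limma 3.58.1 (lmFit and eBayes) in R 4.3.3, with 16 residual and 5.41 prior degrees of freedom. Tests were two-sided, and a gene passed at a p under 0.05 after Benjamini-Hochberg adjustment over the 14557 genes. The code was tested on simulated data. The 53 gene lists held 1048 entries, 769 of them matched and 3 of these through an older symbol, and are described by counts and medians without a test. The comparison, its members and the lists were chosen with earlier results of these data known.

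The text names the 12 higher and 12 lower genes with the smallest p among those whose groups did not overlap, the 8 and 8 of the fit without both arrays, the 3 members of each list with the smallest p, and fixed genes. Of these, it prints what length allows. Alternatives were quantile normalisation again, centring, leaving out dim genes, other feature choices, trend and robust eBayes, array weights, the 10 arrays alone, the replicate block and each array left out. Arrays have no counted depth, and their number limits the precision.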

Additional observations from a re-analysis of the deposited data

Results flagged for a closer look

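Of 242 groups of 5 arrays examined, for 111 genes and 10 marker lists, 51 held an array whose gap to its nearest neighbour took up most of the group's range. Chance gives such a gap in about 1 in 20 independent groups. The genes and lists here were chosen with these data known and share the same 10 arrays. The count of 51 therefore cannot be tested against that share. Resveratrol array 1 accounted for 28 of the 51 and obese array 2 for 18. In the lists below, far above and far under refer to this share of the range. The gap itself may be small, as for the milk protein genes on obese array 2. Their mean level was 2.05 there and 1.71 to 1.80 on the other obese arrays.

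On resveratrol array 1 these levels lay far above the other resveratrol arrays: Csn3 at 10.74, Col1a1 at 11.07, Fads1 at 9.19, Myl11 at 8.89, Hmox1 at 8.87, Ckm at 8.16, Acss2 at 7.30, Ccl2 at 6.69, Tent5a at 6.61, Cpa3 at 6.13, Adgre1 at 5.95, Il18 at 5.71, Parp1 at 5.66 and Irf8 at 5.46. The mean levels of skeletal muscle markers (7.15), fibroblast and progenitor markers (7.16), milk protein genes (6.85) and simple epithelium markers (3.52) did so too. These levels lay far under the other resveratrol arrays: Adipoq at 9.92, Plin1 at 8.39, Cidec at 7.82, Pck1 at 7.43, Pde3b at 6.03, Lep at 5.89, Spopl at 5.83, Dlat at 4.68 and Nsdhl at 3.60. The mean level of adipocyte markers, 8.08, was also far under.

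On obese array 2 these levels lay far above the other obese arrays: Upk2 at 8.59, Cyp1a1 at 4.56, Elf3 at 3.89 and Ckm at 3.33. The mean levels of urothelial markers (7.31), simple epithelium markers (4.81), skeletal muscle markers (3.14) and milk protein genes (2.05) did so too. These levels lay far under the other obese arrays: RT1-Da at 7.04, Mmp2 at 6.74, Rarres2 at 5.42, Hexa at 5.07, Loxl2 at 4.33, RT1-Ba at 4.28, Bhlhe40 at 3.79, Adgre1 at 3.39 and Tyk2 at 2.90. The mean level of MHC class II genes, 5.30, was also far under.

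The remaining 5 came from other arrays. Resveratrol array 5 was highest of its group for RT1-Ba at 6.42 and for Rnf166 at 4.94. Obese array 4 was highest for Ucp1 at 2.25 and lowest for Ddit3 at 3.80, and obese array 5 was highest for Csn1s1 at 1.77.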

How the results depend on the processing

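The count of 0 genes past the threshold held under the alternatives run except 2. Array weights gave 3 genes, all lower: Svs1, Or52b1 and Or4c117b, whose differences with equal weights were -0.72, -0.75 and -0.81. With each array left out in turn the count was 0 to 1, the 1 gene being Pramef8l2 (-0.90 with all arrays) without obese array 1. These last 3 names were chosen after their values were seen. With all 36685 features, an alternative chosen after seeing the data, 0 passed and 3304 were at an unadjusted p under 0.05. That count over genes, 1286 with all arrays, was 655 with dim genes left out, which tests fewer genes (550 higher and 105 lower), 818 without both arrays, and 892 to 1721 with each array left out in turn. Genes whose groups did not overlap, 287 with all arrays, numbered 720 without both arrays and 378 to 727 with each array left out in turn, as fewer arrays overlap less often by construction. The replicate block gave 0 genes past the threshold and 1390 at an unadjusted p under 0.05. Same-numbered arrays of the groups had correlations of deviations between -0.21 and 0.06, so the numbers were not taken as pairs.

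Of 2200 combinations of a named gene and an alternative, 2173 kept the sign and the side of the threshold and 26 had the other sign, over 10 genes. Many named genes were chosen because their groups did not overlap, and these cannot change sign when arrays are left out. Part of that count therefore follows from the choice of genes. Under quantile normalisation again, Prkaa1 had -0.14, Ppargc1a 0.038, Ptgs1 -0.025 and Slc2a4 -0.036. Without both arrays Pde3b had 0.025, Cyp1a1 0.13, Lep 0.28 and Adipoq 0.15, and with array weights Lep had 0.092 and Adipoq 0.084. With each array left out in turn, Prkaa1 ran between -0.11 and 0.16, Ppargc1a between -0.15 and 0.10, Slc2a4 between -0.041 and 0.18, Pde3b between -0.26 and 0.12, Cyp1a1 between -0.72 and 0.079, Lep between -0.72 and 0.43, Adipoq between -0.14 and 0.17, Cidec between -0.52 and 0.078, and Plin1 between -0.38 and 0.045. The cause was not tested. Of 1096 list medians under alternatives, 35 moved by more than 1 SD of the list's level between arrays, over 21 lists. That SD takes in resveratrol array 1 and obese array 2, and is wide for lists in which these arrays stand apart. A large shift of such a list may therefore go uncounted, so the count cannot show that these medians are stable. Without both arrays the muscle, milk protein and urothelial medians went from 0.72, 0.96 and -0.98 to -0.09, -0.01 and 0.02. No level was tested against background, which limits what dim genes show.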

Other observations

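Haemoglobin and other erythroid genes, on 6 measured members, had a median difference of 0.04, with mean levels of 3.28 to 3.78 on resveratrol arrays and 3.10 to 3.82 on obese arrays. The 19 measured genes of branched-chain amino acid breakdown had a median of 0.08 with 13 positive. Without both arrays it was 0.13 with 17 positive, and after quantile normalisation again -0.06 with 5 positive. For rosiglitazone minus obese, which shares the obese arrays, the median of these 19 genes was 0.96. T cell and NK cell markers had a median of 0.12 over 17 genes, or -0.02 without both arrays, and B cell and plasma cell markers one of -0.01 over 9 genes. Neutrophil markers had a median of 0.00 over 9 genes.

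Other organ marker lists were dim as well. The 12 kidney tubule markers had a median of -0.12, the 8 adrenal markers -0.14, the 15 male accessory gland and epididymal markers -0.12 and the 8 pancreatic acinar markers -0.06, where the 7278 genes under the median level had -0.08. The 8 liver markers had a median of 0.08, with 5 positive. The kidney list averaged 2.01 to 2.24 on resveratrol arrays and 2.13 to 2.38 on obese arrays.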
